A study of Mus musculus with 32 samples.

Results

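H3K9me3 peaks of male germ cells that lack Morc1 were compared between postnatal day 0 (P0) and postnatal day 3 (P3). The 2 lists held 171610 autosomal peaks, of 611609 peaks in the 8 lists of the study, with 89020 at P0 and 82590 at P3. A P0 peak that overlapped a P3 peak by 1 bp or more was called kept, a P0 peak with none was called gone, and a P3 peak with no P0 peak was called new. By this rule 18854 P0 peaks were gone, 11249 P3 peaks were new, and 70166 P0 peaks and 71341 P3 peaks were kept. Peak positions alone chose these classes, so their overlap is a description and no test was applied to it.

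The study immunoprecipitated chromatin from testis germ cells of mice that all carried the Mvh-Venus transgene, at 2 embryonic stages, E13.5 and E16.5 (days of gestation), and on both postnatal days. Animals were homozygous for the Morc1 mutation (Morc1 (-/-), KO) or carried 1 mutant copy (Morc1 (+/-), het), so the comparison genotype was not wild type. Each stage and genotype had 2 H3K9me3 samples and 1 deposited peak list, and the 4 samples behind the 2 KO lists came from Morc1 (-/-) testes at P0 and P3. Whether several animals were pooled in a sample, and how the samples were combined in a list, is not given in the sources used here.

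H3K9me3, the trimethylated form of lysine 9 of histone H3, marks heterochromatin and is laid down by methyltransferases such as Setdb1. In the male germ line it lies over young retrotransposons and over silent gene clusters. Morc1 is a germline ATPase of the Morc family that is needed for transposon silencing in these cells. Gonocytes, the male germ cells of the late fetal and newborn testis, rest in the cell cycle while DNA methylation is rebuilt, and turn into spermatogonia in the first days after birth. The lists hold no expression values, so neither the germ cell identity nor the knockout could be checked in them. Over the Morc1 gene body itself the KO lists covered 0 kb at P0 and 1.00 kb at P3, against 3.47 kb in P0 het and 3.21 kb in P3 het.

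New peaks lay over 44 annotated gene starts and gone peaks over the starts of 91 genes, and 4 of these starts are shown with the 250 bases before them because their windows lay almost wholly outside the gene. The sequences are those of RefSeq for GRCm38.p6 (mm10), given 5′ to 3′ on the strand of the gene, which was the minus strand in all 4, with CG dinucleotides in capitals. The windows are chr4:133263088-133263337 for Sytl1, which encodes a Rab27-binding protein of vesicle traffic, and chr6:142804467-142804716 for Sult6b2, a sulfotransferase gene. Those of the gone peaks are chr7:19715430-19715679 for Tomm40, the channel of the outer mitochondrial membrane, and chr7:31403179-31403428 for Scgb2b4-ps, a secretoglobin gene.
Sytl1 (start in a new peak): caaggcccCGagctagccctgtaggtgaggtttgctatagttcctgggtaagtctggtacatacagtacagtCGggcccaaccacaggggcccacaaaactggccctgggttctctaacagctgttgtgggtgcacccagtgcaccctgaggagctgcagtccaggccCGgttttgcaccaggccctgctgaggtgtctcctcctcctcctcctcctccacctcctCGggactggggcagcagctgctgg
Sult6b2 (start in a new peak): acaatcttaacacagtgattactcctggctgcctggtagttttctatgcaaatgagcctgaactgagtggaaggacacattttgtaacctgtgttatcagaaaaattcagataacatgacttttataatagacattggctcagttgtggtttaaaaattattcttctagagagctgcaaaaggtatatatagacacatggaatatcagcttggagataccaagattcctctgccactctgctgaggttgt
Tomm40 (start in a gone peak): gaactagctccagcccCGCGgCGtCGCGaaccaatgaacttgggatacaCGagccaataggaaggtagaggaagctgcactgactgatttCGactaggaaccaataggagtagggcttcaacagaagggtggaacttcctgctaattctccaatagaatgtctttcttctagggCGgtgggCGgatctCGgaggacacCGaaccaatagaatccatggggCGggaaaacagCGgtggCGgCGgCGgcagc
Scgb2b4-ps (start in a gone peak): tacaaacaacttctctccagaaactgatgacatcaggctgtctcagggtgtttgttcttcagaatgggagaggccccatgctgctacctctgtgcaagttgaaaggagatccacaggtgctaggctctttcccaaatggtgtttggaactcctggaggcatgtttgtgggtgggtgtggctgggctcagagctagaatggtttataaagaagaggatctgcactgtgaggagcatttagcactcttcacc
The window of Tomm40 held 16 CG dinucleotides, that of Sytl1 held 4, and those of Sult6b2 and Scgb2b4-ps held 0. CG reads the same on both strands, and 6.31% of all 20085 start windows of this length lacked it. The sequence of the peaks themselves was not analysed here.

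From P0 to P3 the KO lists covered less of the autosomes, 324.0 Mb at P0 and 303.8 Mb at P3, a ratio of 0.938. Gone peaks made up 21.2% of the P0 list (Wilson 95% interval 20.9 to 21.4%) and new peaks 13.6% of the P3 list (13.4 to 13.9%). These intervals and the others below cover counting error only and treat neighbouring peaks as independent, which they are not. Fewer peaks thus appeared than went missing, and both classes were short. The median length was 1257 bp for gone and also for new peaks, against 2903 bp for kept P0 peaks and 2923 bp for kept P3 peaks. Gone peaks held 27.6 Mb and new peaks 16.9 Mb. The share of gone peaks ran from 18.3% on chromosome 18 to 23.1% on chromosome 7, and the share of new peaks from 10.7% on chromosome 3 to 18.1% on chromosome 11.

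The share of gone peaks fell with the length of the peak. A longer peak meets the rule of 1 bp more easily, and the part of this in the shares was not tested. In P0 KO peaks of up to 1.1 kb, a class dominated by the shortest common length in the list, 62.4% were gone, against 33.0% of those of 1.1 to 2 kb and 10.4% of those of 2 to 3 kb. Among the 5053 P0 peaks of 10 kb or more 11 were gone, and among the 4320 such P3 peaks 6 were new. Gone and new peaks mostly lay some kb from the nearest peak of the other list. Peaks of 1 list lay at least 1499 bp apart, which limits close neighbours, and small shifts of a site were not tested for. The median distance of a gone peak to the nearest P3 peak was 8.96 kb, and 611 of 18854 lay within 1 kb of one. A new peak lay at a median of 8.49 kb from the nearest P0 peak.

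**Figure D1:**
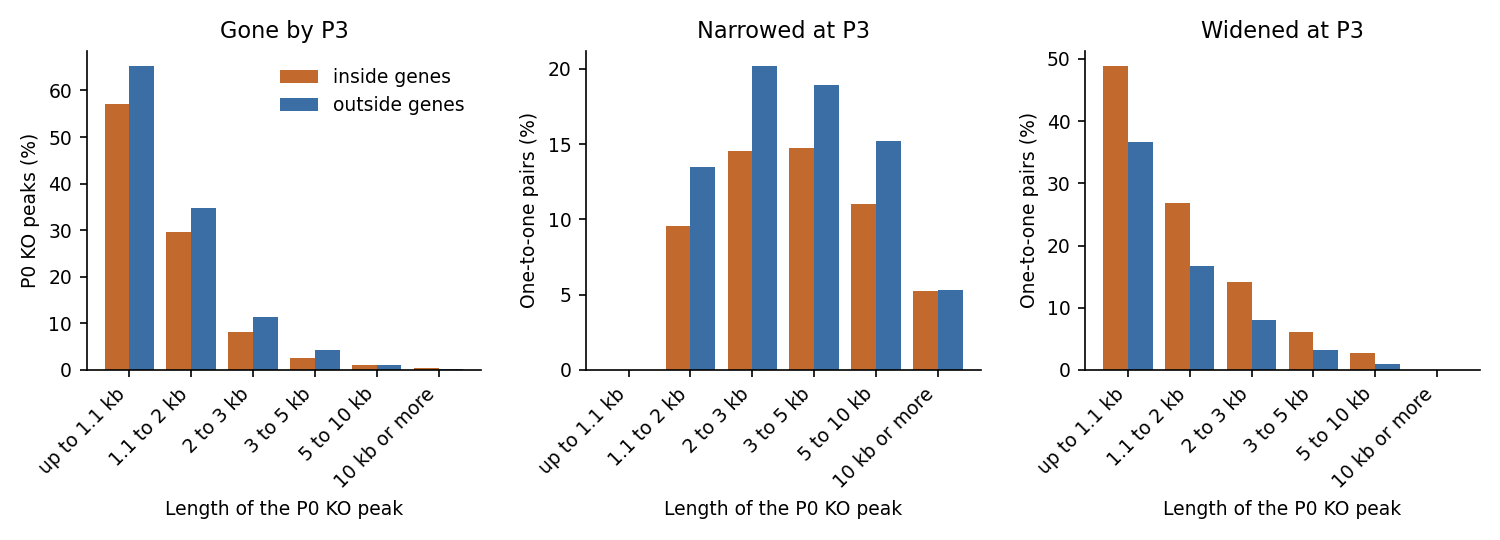
Share of P0 KO peaks that were gone at P3 (left) and of one-to-one peak pairs that narrowed (middle) or widened (right) by at least 1.5-fold, in percent, by the length of the P0 peak and by whether its midpoint lay inside a protein-coding gene. Gone peaks fell from 62.4% of the shortest class to 0.218% of the longest, and in the 1.1 to 2, 2 to 3, 3 to 5 and 5 to 10 kb classes narrowing was more frequent outside genes and widening inside them.

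Kept peaks formed 68182 connected groups, of which 63620 paired a single P0 peak with a single P3 peak. A further 2658 P0 peaks were split into several P3 peaks, 1767 P3 peaks joined several P0 peaks, and 137 groups had several on both sides. In the one-to-one pairs the median ratio of P3 to P0 length was 0.998, and the middle 50 percent of pairs lay between 0.813 and 1.20. Most pairs thus kept their width, and 74.5% changed by less than 1.5-fold. By at least 1.5-fold 8912 pairs narrowed (14.0%, 13.7 to 14.3%) and 7280 widened (11.4%, 11.2 to 11.7%). Peaks of up to 1.1 kb can hardly narrow, since the shortest peaks of the lists were about that long, and none of these pairs did.

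Width changes were mostly on a single side. Of the widened pairs 70.1% moved 1 edge outward by at least 500 bp and 23.1% moved both. Of the narrowed pairs 73.9% moved 1 edge inward and 17.8% both. Widened pairs had a median of 1536 bp at P0 and 3085 bp at P3, and narrowed pairs 2996 bp and 1318.5 bp. The longest domains became fewer: 221 P0 peaks and 111 P3 peaks measured 30 kb or more, with 8.45 Mb and 4.11 Mb.

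The het lists gave close values over the same 3 days. There 21.3% of P0 peaks were gone, 14.1% of P3 peaks were new, and the covered length went from 309.0 to 278.0 Mb, a ratio of 0.900. In het pairs 16.3% narrowed and 10.5% widened, against 14.0% and 11.4% in KO, and peaks of 30 kb or more went from 191 to 88. With 1 list a group these differences between genotypes have no replicate error. In KO the step before birth went the other way in covered length: from E16.5 to P0, a comparison that shares the P0 KO list, 15.6% of peaks were gone, 34.3% were new and the covered length rose 1.21-fold.

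The covered length inside and outside protein-coding genes went opposite ways. Inside genes the KO lists covered 71.6 Mb at P0 and 77.3 Mb at P3, a ratio of 1.08, and outside genes 252.4 Mb and 226.4 Mb, a ratio of 0.897. The ratio inside genes was above 1 on 19 of 19 autosomes, from 1.01 on chromosome 7 to 1.22 on chromosome 11. The ratio outside genes was below 1 on 19 of 19, from 0.863 on chromosome 14 to 0.964 on chromosome 11. Genes therefore took 22.1% of the covered length at P0 and 25.5% at P3. In het both directions were the same, with ratios of 1.08 inside and 0.856 outside genes.

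Kept peaks held most of the rise inside genes, from 63.7 Mb at P0 to 69.0 Mb at P3 (5.25 Mb more), while new peaks had 8.39 Mb and gone peaks 7.95 Mb there. Outside genes kept peaks went from 232.8 to 218.0 Mb, and new peaks had 8.46 Mb against 19.6 Mb in gone peaks.

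By number, new peaks lay in genes more often than the other classes. A midpoint inside a gene body was found for 47.9% of new peaks (47.0 to 48.8%), against 30.3% of gone peaks (29.7 to 31.0%) and 28.0% of kept P3 peaks (27.6 to 28.3%). Het had 51.3% for new peaks and 25.8% for gone peaks. In KO 5715 gone and 5389 new peaks, and 20023 kept P0 and 19943 kept P3 peaks, had their midpoint in a gene. The number of peaks inside genes thus did not rise with the covered length. Within 5 kb of a gene start lay 7.45% of new, 5.35% of gone and 4.74% of kept P3 peaks. Kept pairs differed by place as well. Pairs inside genes had a median ratio of 1.06, with 18.3% widened and 11.03% narrowed, and pairs outside genes had 0.978, with 8.62% widened and 15.2% narrowed.

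**Figure D2:**
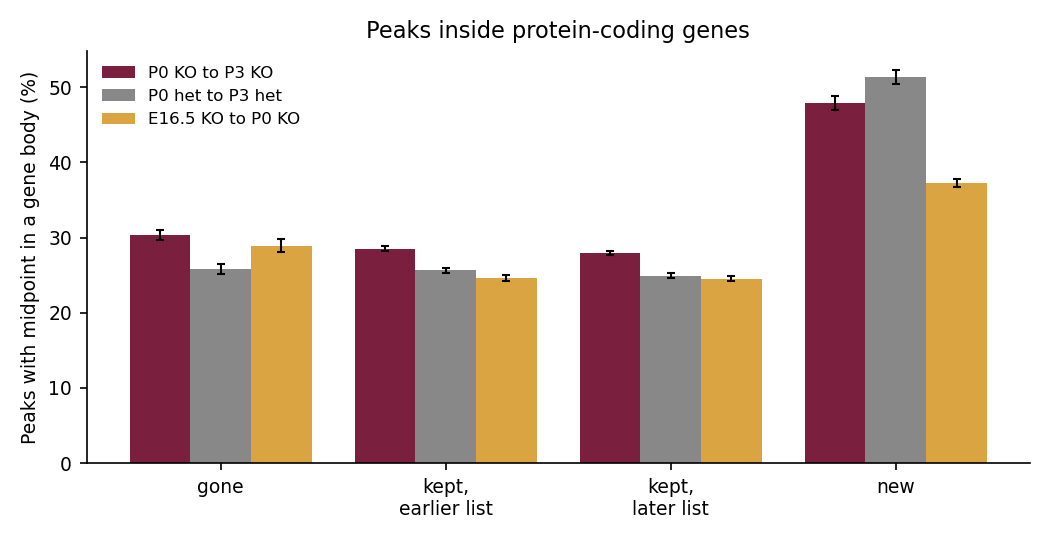
Share of peaks, in percent, whose midpoint lay in a protein-coding gene body, for gone, kept and new peaks of the KO step from P0 to P3, the het step from P0 to P3 and the KO step from E16.5 to P0. Bars are single values from 1 list each and error bars are Wilson 95% intervals of the peak count; new peaks stand at 47.9% in KO and 51.3% in het.

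The other lists show where gone and new peaks had been called before. Of the gone peaks 47.3% were also called in P0 het and 17.7% in P3 het, and 36.1% were called in E16.5 KO. Of the new peaks 46.7% were called in P3 het and 14.7% in P0 het, and 16.6% in E16.5 KO. Most new peaks had no embryonic call: 73.6% overlapped no peak of the 4 embryonic lists, against 52.4% of gone peaks and 21.6% of kept P0 peaks. By the rule gone and kept P0 peaks are in P0 KO and new peaks are not, so the classes differ before this comparison. The E13.5 lists were also shorter, with 50191 (het) and 55136 (KO) autosomal peaks. Close to 50 percent of both classes were called in neither postnatal het list, 9399 of the gone (49.9%) and 5579 of the new peaks (49.6%), and their median length was 1001 bp in both. Gone peaks that were likewise called in P0 het and not in P3 het numbered 6111 (32.4%). New peaks called in P3 het and not in P0 het numbered 4022 (35.8%), and 56.9% of those had their midpoint in a gene.

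**Figure D3:**
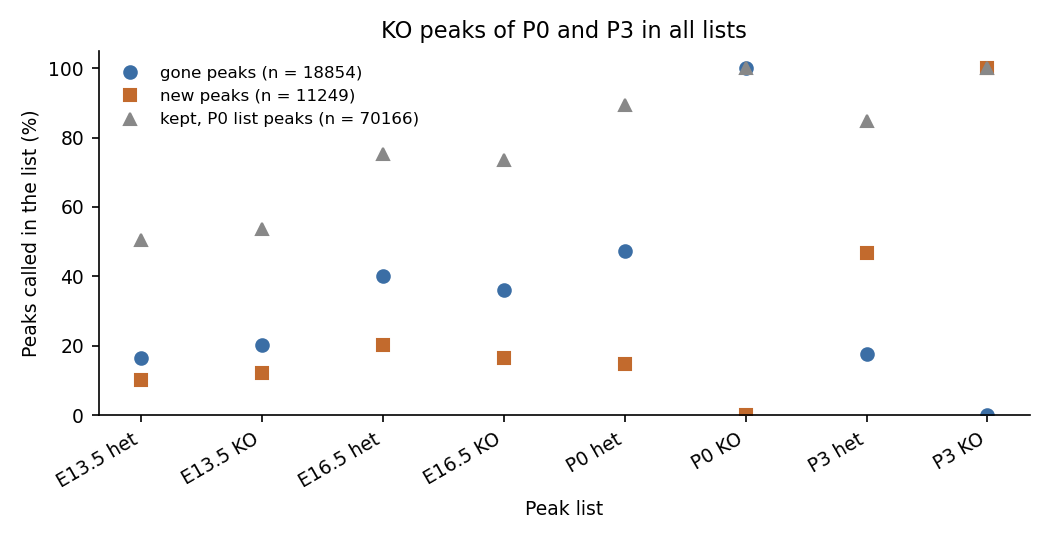
Share of gone, new and kept P0 peaks of the KO lists, in percent, that overlapped a peak of each of the 8 lists by 1 bp or more. The values of 100% and 0% in P0 KO and P3 KO follow from the rule; in the het lists gone peaks stand at 47.3% at P0 and 17.7% at P3, and new peaks at 14.7% and 46.7%.

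Long peaks among the gone and new ones were often called in other lists. Of the 139 gone peaks of 5 kb or more, 134 were called in P0 het and 87 (62.6%, 54.3 to 70.2%) were still called in P3 het, and 131 overlapped an embryonic peak. The longest was a peak of 17.6 kb between Spock3 and Sgo2b (chr8:63609116-63626727), of which het covered 17.6 kb at P0 and still 6.33 kb at P3. The next 2 in length lay in the gene desert between Sox11, a neural transcription factor gene, and Dcdc2c, at chr12:27881493-27896299 and chr12:28224838-28239367. These 14.8 and 14.5 kb were covered over 14.7 and 14.4 kb in P3 het and over 14.8 and 10.8 kb in E16.5 KO. Both sites were covered at least in part in each of the 7 other lists, and P3 KO was the only one with 0 kb. The next in length, 11.8 kb between Sult1e1 and Csn1s1 (chr5:87602664-87614430), was likewise covered over its whole length in P3 het.

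New peaks of 5 kb or more numbered 108, of which 97 were called in P3 het and 30 (27.8%, 20.2 to 36.9%) in P0 het. The 2 longest were not new to the cells of the study. One of 13.8 kb between Adcyap1 and Mettl4 (chr17:94486628-94500408) and one of 13.3 kb over Vmn1r41, a pheromone receptor gene (chr6:89738597-89751853), were covered over 12.1 and 11.1 kb in E16.5 KO and over their full lengths in P0 het. They were absent from P0 KO. The next in length lay in Sipa1l1, a gene for a GTPase-activating protein of Rap (chr12:82221796-82232587), and was of another kind. Its 10.8 kb had 0 kb in each of the embryonic lists and both P0 lists, and 3.39 kb in P3 het.

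The pairs with the largest gain of length lay at 5 sites. Between Tex29 and A230072I06Rik (chr8:12010030-12022424) a P0 peak of 1.00 kb stood against a P3 peak of 12.4 kb. In Kcnab2, a potassium channel subunit gene, the peak went from 1.53 to 10.5 kb (chr4:152441841-152452343), in Trrap, a cofactor of histone acetyltransferases, from 4.07 to 13.8 kb, in Syn3, a synapsin gene, from 1.00 to 10.4 kb, and between St3gal1 and Zfat from 4.999 to 15.0 kb. P3 het covered 7.46 to 15.0 kb of these 5 regions, and P0 het 0 to 6.90 kb. Het therefore showed longer cover at P3 than at P0 at each of these 5 sites.

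The pairs with the largest loss were less alike in het. The peak over Gm51582 went from 16.6 to 3.06 kb (chr8:81324214-81340775), while 16.2 kb of it was covered in P3 het. That near Orc6, which encodes a subunit of the origin recognition complex, went from 13.0 to 1.53 kb (chr8:85306863-85319842), with 12.5 kb covered in P3 het. The peaks at Vmn2r65, a vomeronasal receptor gene, at Olfr765, an odorant receptor gene, and between Gm42163 and Cenpc1 went from 15.4 to 2.60 kb, 12.8 to 1.53 kb and 16.6 to 5.53 kb. At these 3 sites P3 het covered 5.50, 7.75 and 10.7 kb, less than the 12.9, 12.4 and 13.7 kb of P0 het.

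Per gene, the covered length of the gene body was compared for the 9555 of 20665 autosomal protein-coding genes with a peak base in either KO list. A gene was called gained when P3 was at least 1.5 times P0 and at least 2 kb longer, and lost for the reverse. Gained genes numbered 1423 (14.9% of those with a peak) and lost genes 574 (6.01%), and the median difference was 0.36 kb in favour of P3. Of the gained genes 336 had no P0 base and of the lost genes 150 had no P3 base. Gained genes had a median length of 62.4 kb and lost genes of 50.5 kb, against 41.6 kb for all genes with a peak. The share gained was largest, 22.7%, in genes of 50 to 100 kb and 3.24% in genes of 500 kb or more.

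Many of these genes were also called in het, where 18.6% of 8837 genes were gained and 5.7% lost. The gained genes shared by both genotypes numbered 884, which is 62.1% of the KO genes and 53.7% of the het genes. Lost genes were shared less widely, 193 in number, 33.6% of the KO and 38.3% of the het genes. Of the KO-gained genes 5 were lost in het, and of the KO-lost genes 15 were gained in het. Whether the genotypes differ was not tested, since a single list stands for each group.

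Among genes that passed the 1.5-fold limit the largest gain was in St6galnac3, a sialyltransferase gene (chr3:153198274-153725133), with 54.4 kb covered at P0 and 107.2 kb at P3 in KO, and 32.7 and 93.9 kb in het. Dst, which encodes the cytolinker dystonin (chr1:33907888-34308662), went from 21.7 to 54.1 kb, and Ttc28 from 33.2 to 65.7 kb. Agap1, an Arf GTPase-activating protein gene (chr1:89454811-89895282), went from 10.5 to 38.6 kb and Xpo7, an exportin gene of nuclear transport (chr14:70662126-70770864), from 3.14 to 28.6 kb. In het these last 2 went from 5.47 to 31.3 kb and from 2.79 to 19.045 kb. Cep112, Fto (an RNA demethylase), Atrnl1, Aopep and Sipa1l1 completed the 10 largest gains among these, with 20.3 to 30.3 kb more at P3. Of these 10 genes 8 were called gained in het; Cep112 and Fto, with 17.6 and 14.4 kb more at P3 het, missed the 1.5-fold limit there.

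Genes without a P0 KO base included 5 long gains. Cdc42bpb, a kinase gene of the cytoskeleton, had 15.4 kb at P3 in KO and 5.64 kb in het. Selenof, a selenoprotein gene, had 12.8 kb, Pus7, a pseudouridine synthase gene, 12.1 kb, Yaf2, a Polycomb partner gene, 11.1 kb, and Marveld2, a gene of cell junctions, 10.2 kb. At P3 het the latter 4 had 9.34, 2.002, 4.83 and 15.5 kb, and all 5 were called gained there.

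Among genes called lost the largest difference was in Spock3, a proteoglycan gene (chr8:62951000-63357101), with 107.9 kb at P0 and 60.3 kb at P3, and 110.8 and 65.0 kb in het. Grik2, a glutamate receptor subunit gene (chr10:49093680-49790161), went from 83.1 to 54.9 kb, and Slc22a27, an organic anion transporter gene, from 49.97 to 22.2 kb. Wdr49, Gm7133, Mtus2, Cyp3a59, Cadm2 (a synaptic cell adhesion gene), Dnah7a (a dynein of cilia) and Sult2a4 (a sulfotransferase) made up the rest of the 10, with differences of -17.5 to -25.8 kb. In het 7 of the 10 were called lost, while Mtus2, Cadm2 and Sult2a4 had -7.00, -9.37 and -10.9 kb and were called neither. In Spock3, Grik2 and Wdr49 the cover had been higher in E16.5 KO than at E13.5 KO (154.9 against 45.1 kb, 80.4 against 33.6 kb and 55.5 against 21.6 kb).

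Of the genes that went to 0 in KO, Castor2, a gene of the mTORC1 pathway, had 7.47 kb at P0, and 11.1 kb at P0 het against 1.86 kb at P3 het. Acp7, a phosphatase gene, had 5.55 kb and went to 0 in het as well. Brd3, which encodes a reader of acetylated histones, differed from these. Its 5.995 kb at P0 went to 0 at P3 KO, while het had 7.01 and 6.58 kb. Gm51582 (6.82 kb) and Gm38396 (5.44 kb) were the other 2, with 6.89 and 0 kb at P3 het.

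**Figure D4:**
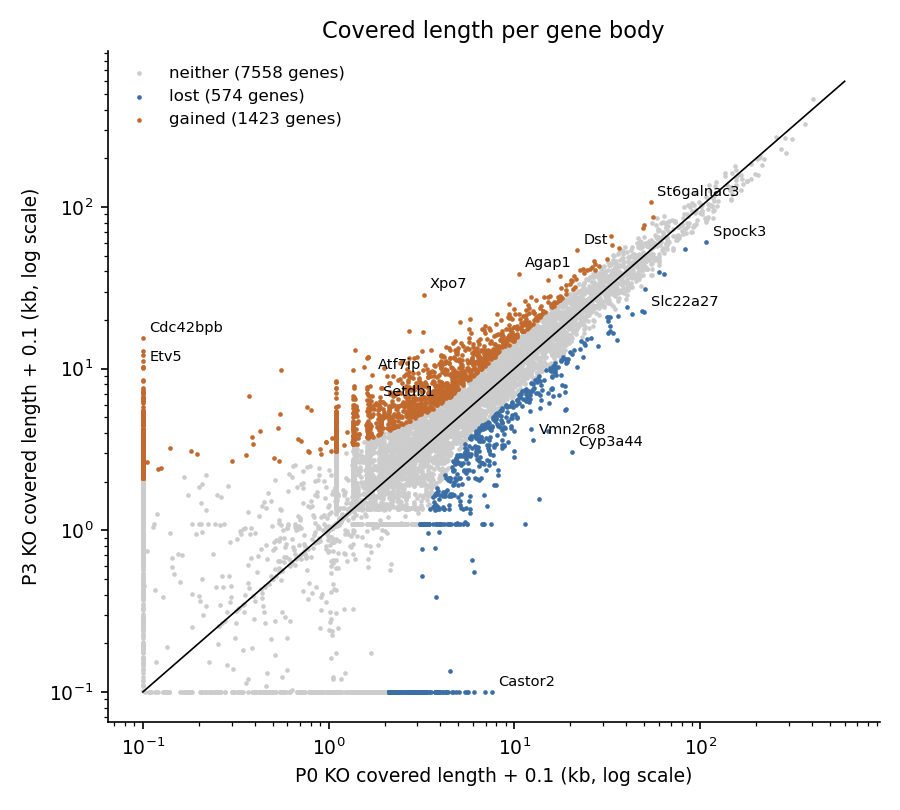
Covered length of each of the 9555 gene bodies in P0 KO (x) and P3 KO (y), in kb plus 0.1 on log axes, with the line of equal length; genes on the left or lower edge have 0 kb in that list. The 1423 gained genes include Xpo7 and Agap1 well above the line and Etv5 and Cdc42bpb on the left edge, and the 574 lost genes include Cyp3a44 and Slc22a27.

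Of the genes of H3K9 methylation and heterochromatin, 8 of 19 with a peak were gained (42.1%, beside 14.9% of all genes). In this list 0 genes were lost (beside 6.01%), and the summed cover went from 59.5 to 103.8 kb. Setdb1, the H3K9 methyltransferase of transposon silencing, went from 1.71 to 6.07 kb, and Atf7ip, its cofactor, from 1.61 to 9.06 kb. Atf7ip had been covered over 14.9 kb at E13.5 KO and 1.42 kb at E16.5 KO. Ehmt1, a methyltransferase of H3K9 mono- and dimethylation, went from 6.36 to 14.1 kb, and Pphln1, a subunit of the HUSH silencing complex, from 4.90 to 13.3 kb. Dnmt1, Atf7ip2, Daxx and Kdm3b were the other members gained, by 2.15 to 3.79 kb. In het, with 46.6 and 89.0 kb in sum, 8 of the list were gained too, 5 of them the same genes: Ehmt1, Setdb1, Atf7ip, Pphln1 and Daxx. Dnmt1, Atf7ip2 and Kdm3b were called neither there. The median length of these genes was 52.3 kb, and a gain was called for 22.7% of all genes of 50 to 100 kb; the part of gene length in the count was not tested.

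Of the spermatogonial genes, 5 of 12 with a peak were gained (41.7%, beside 14.9% of all genes) and 0 were lost (beside 6.01%). With gene bodies extended by 5 kb at both ends 5 of 18 were gained (27.8%, beside 13.6% of all genes), and with peaks up to 3 kb apart joined 2 were lost. Their median length was 76.6 kb, in the class of 50 to 100 kb where 22.7% of all genes were gained, and the part of gene length was again not tested. Etv5, a transcription factor of spermatogonial stem cells (chr16:22381313-22439570), went from 0 to 10.1 kb in KO and from 0 to 6.86 kb in het. It had 0 kb in both E16.5 lists. Itga6, an integrin of the spermatogonial surface, went from 7.26 to 14.3 kb, and Foxo1, a regulator of stem cell maintenance, from 2.56 to 8.44 kb. Dmrt1, a sex determination factor, had 0 and 4.12 kb. Not all members went this way: of the 12 with a peak 8 were covered over more at P3 and 4 over less. The latter were named after their values were seen. Zbtb16, a stem cell factor, had 18.9 kb at P0 KO and 13.9 kb at P3 KO, but 7.95 and 12.6 kb in het. Kit, the receptor of differentiating spermatogonia, had 3.47 and 1.53 kb in KO, Gfra1 7.25 and 5.96 kb, and Eomes 1.51 and 0 kb.

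Of the piRNA pathway, which guides transposon silencing by small RNAs, 5 of 19 genes with a peak were gained (26.3%, beside 14.9% of all genes). A further 1 was lost (5.26%, beside 6.01%). The median length of these genes was 49.0 kb. Of all genes of 20 to 50 kb 14.6% were gained, and of those of 50 to 100 kb 22.7%. The part of gene length in the count was not tested. Ddx4, the germ cell helicase also called Mvh (chr13:112598333-112652633), had 12.2 kb at P0 and 27.5 kb at P3 in KO, and 11.7 and 50.2 kb in het. Before birth it had 47.5 kb at E13.5 KO and 6.79 kb at E16.5 KO, against 50.03 and 49.97 kb in the het lists of those stages. Every animal carried the Mvh-Venus transgene, and its part in these values was not tested. Ddx4 also counts in the spermatogonial list, and made up 15.3 of the 43.3 kb by which the piRNA sum rose. Mov10l1, the helicase of piRNA precursors, went from 15.8 to 24.1 kb, Tdrd9 from 5.80 to 12.4 kb, Mael from 0 to 2.92 kb and Tdrd1 from 1.82 to 4.66 kb. The value of Mael rests on peaks shorter than 2 kb. The lost member was Tdrd12, with 2.91 kb at P0 and 0 kb at P3, and 2.54 and 0 kb in het.

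Meiosis genes were gained in 4 of 16 cases (25%, beside 14.9% of all genes) and lost in 1 (beside 6.01%). Their median length was 52.9 kb, and of all genes of 50 to 100 kb 22.7% were gained. With peaks of 2 kb or more 2 of 11 were gained (18.2%), a smaller share than the 30.6% of all genes at that setting. Msh4, a crossover factor, went from 2.04 to 7.10 kb, and Sycp1, of the synaptonemal complex, from 7.26 to 11.7 kb. Mei1, needed for meiotic breaks, went from 3.26 to 0 kb, with 1.26 and 1.00 kb in het, and its P0 value likewise rests on peaks under 2 kb. Imprinted genes stayed near the shares of all genes, with 2 of 18 gained and 1 lost. Igf2r went from 1.89 to 5.33 kb and Zdbf2 from 3.84 to 6.97 kb, and Gnas from 4.36 to 1.00 kb. Snrpn, which flanks the longest P3 KO peak of 65.6 kb, had 169.4 and 138.0 kb and was called neither.

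Genes that mark the somatic cells of the testis, the other cells of the tissue, gave 0 gained and 1 lost of 11 with a peak. Of all genes 14.9% were gained and 6.01% lost. The sum of the somatic genes was 54.8 kb at P0 KO and 46.4 kb at P3 KO. In het the sums were 25.2 and 25.8 kb, lower than in KO at both stages. Pdgfra, a receptor of interstitial cells, had 2.26 kb at P0 KO and 0 kb at P3 KO and in both postnatal het lists. Cyp11a1 and Hsd3b1, steroid enzymes of Leydig cells, had 6.34 and 5.15 kb at P0 KO and 4.29 and 3.30 kb at P3 KO. In KO 8 of the 11 genes were covered over less at P3 than at P0, and 3 over more. The latter were Ptprc (10.7 and 12.4 kb), Wt1 (4.36 and 5.73 kb) and Pecam1 (1.608 and 2.115 kb). Cover over these genes does not measure their expression, and the share of somatic cells in the samples was not measured.

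Vomeronasal type 2 receptor genes, which encode pheromone receptors and lie in clusters, included many lost genes. Of 83 with a peak 30 were lost (36.1%, against 6.01% of all genes) and 1 gained (1.2%, against 14.9%). The lost and gained genes lay at 11 loci over 1 Mb apart. The sum of the type 2 genes went from 1038.5 to 800.2 kb in KO and from 987.9 to 697.0 kb in het. In het 31 were lost, 19 of them the same genes. Vmn2r68 (chr7:85221518-85237704) had 12.5 kb at P0 KO and 3.51 kb at P3 KO and was covered over its whole 16.2 kb in the 4 embryonic lists. Vmn2r98 went from 25.7 to 15.4 kb and Vmn2r95 from 24.5 to 15.1 kb. The gained gene was Vmn2r11, named for this count after its values were seen, with 0 kb at P0 KO and 6.59 kb at P3 KO, and 10.6 and 5.30 kb in het. Type 1 vomeronasal receptor genes had 2 gained and 2 lost of 73 (2.74% each), beside 14.9% and 6.01% of all genes. Odorant receptor genes had 3 and 7 of 403 (0.744% and 1.74%). Median gene lengths were 0.948 kb (type 1) and 0.951 kb (odorant), so the limit of 2 kb can seldom be met within the gene body. With 5 kb on each side type 1 receptor genes had 4 gained and 17 lost of 116 (3.45% and 14.7%). Odorant receptor genes had 20 and 81 of 746 (2.68% and 10.9%), beside 13.6% gained and 7.4% lost of all genes. Vmn2r genes then had 31 lost of 86 (36.0%).

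Genes with symbols that start with Cyp2, Cyp3 or Cyp4 were counted together. Most are cytochrome P450 genes of the families Cyp2 to Cyp4, which act on drugs and steroids. Cyp20a1, Cyp39a1 and Cyp46a1 in this list belong to other families. Of 62 with a peak 11 were lost (17.7%, beside 6.01% of all genes) and 3, Cyp46a1 among them, gained (beside 14.9%), at 8 loci. The Cyp3a cluster on chromosome 5 held the largest of these. Cyp3a59 (chr5:146079208-146114978) was covered over its whole 35.8 kb at P0 KO and over 15.0 kb at P3 KO, Cyp3a44 over 20.3 and 2.95 kb, and Cyp3a25 over 32.5 and 17.0 kb. In het Cyp3a59 had 33.9 and 9.88 kb. Clustered protocadherin genes, which encode neuronal adhesion proteins, had 7 of 35 lost (20%, beside 6.01% of all genes) and 0 gained (beside 14.9%). But their gene bodies overlap at a single locus, so these 7 share 1 change. Each of the 7 had 6.64 kb at P0 KO and 2.51 kb at P3 KO. In het all of these were called neither, while 7 others of the same locus were gained, from 0 to 2.002 kb, and 0 were lost. The protocadherin sum went from 742.3 to 595.4 kb in KO and from 570.4 to 477.7 kb in het. Copies in such families are alike, and how the authors placed reads that match several copies is not given in the sources used here, so values for single members are uncertain.

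UDP-glucuronosyltransferase genes (Ugt), which conjugate drugs and steroids, had 3 of 16 lost (18.8%, beside 6.01% of all genes) and 0 gained (beside 14.9%). The 3 lost genes lay at 2 loci, and among them was Ugt2b36, with 3.67 kb at P0 KO and 0.288 kb at P3 KO. With gene bodies extended by 5 kb at both ends 2 of 21 Ugt genes were lost (9.52%, beside 7.4% of all genes). Zinc finger genes named Zfp, many of which encode silencing factors of transposons, had 30 of 182 gained (16.48%) and 7 lost (3.85%). These shares were near the 14.9% and 6.01% of all genes. Serpina and Serpinb genes had 4 of 27 gained (14.8%, beside 14.9% of all genes) and 0 lost (beside 6.01%). Synaptic adhesion genes, most of them very long, had 0 of 28 gained (beside 14.9% of all genes) and 1 lost, Cadm2 (beside 6.01%). Their median length was 907 kb, and of all genes of 500 kb or more 3.24% were gained and 0.926% lost. The sum of the synaptic adhesion list went from 2277.3 to 2023.3 kb, and 23 of the 28 were covered over less at P3 than at P0. The median difference was -8.30 kb, against -1.72 kb for genes of 500 kb or more and 0.36 kb for all genes. The part of gene length in these values was not tested. Ptprd had 197.9 kb at P0 KO and 159.2 kb at P3 KO, and Cdh18 146.4 and 110.8 kb. Among all 216 genes of 500 kb or more the sum went from 18439 to 17884 kb, but it was 136.5 kb higher at P3 with peaks of 2 kb or more and 636.4 kb higher with both lists scaled to equal totals. Sntg1 had 289.5 and 217.2 kb, and Csmd1 402.9 and 463.5 kb; both differences exceed those of the called genes above but stay under 1.5-fold. In het Csmd1 had 322.8 and 320.0 kb.

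**Figure D5:**
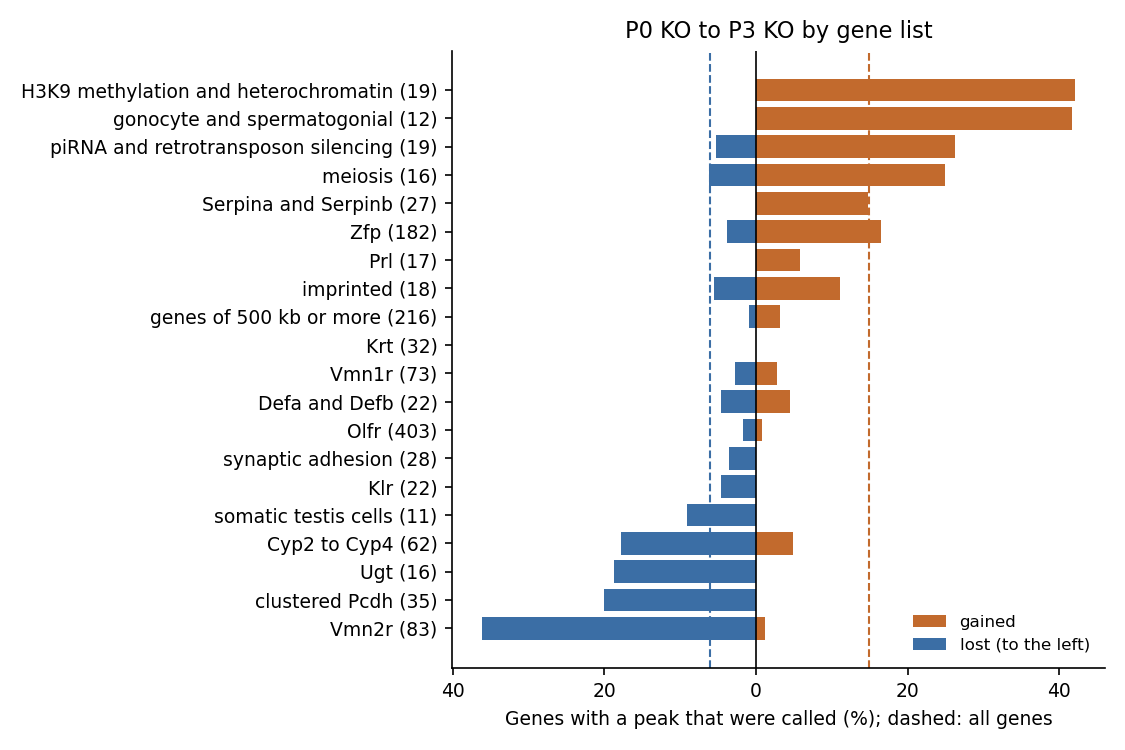
Share of the genes with a peak, in percent, that were called gained (to the right) or lost (to the left) from P0 KO to P3 KO in each gene list with 10 or more such genes, with their number in brackets. Dashed lines give the shares over all genes, 14.9% gained and 6.01% lost; the H3K9 methylation list stands at 42.1% gained and Vmn2r at 36.1% lost.

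Gene starts were seldom marked, and fewer at P3 than at P0, as the whole list also held fewer peaks at P3 (82590 against 89020). Of 16457 genes with a known start, 921 had one in a P0 KO peak, 858 in a P3 KO peak and 716 in both. A start was called at P3 and not at P0 in 0.863% of genes and at P0 and not at P3 in 1.25%, against 0.966% and 1.43% in het. The 250 bases before starts called in both KO lists held a median of 1 CG, before starts called only at P0 1, only at P3 2, and before starts called in neither 11.

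Of the starts whose sequences are shown above, the new peak over Sytl1 measured 4.69 kb (chr4:133260675-133265359) and covered none of it in P0 KO, P0 het or the embryonic lists, and 4.40 kb in P3 het. The new peak over Sult6b2 (4.50 kb) was covered in full in P3 het and in no earlier list. The gone peak over Tomm40 measured 6.70 kb (chr7:19711452-19718148), with 4.98 kb in P0 het and 0 kb in P3 het and in the 4 embryonic lists. That over Taf6l, a gene for a subunit of histone acetyltransferase complexes, measured 5.52 kb (chr19:8783481-8789003) and had 5.33 kb in P0 het and 0 kb in the same other lists. These 2 peaks were thus called at P0 in both genotypes and at no other stage. The gone peak over Scgb2b4-ps measured 5.03 kb, with 2.002 kb in P0 het. The other starts in the longest such peaks were those of Vmn1r41, Olfr1504 and Atp9a (new) and Olfr113 and Vmn2r51 (gone). Atp9a, a flippase gene, has its marked start inside the gene body, where the new peak of 6.25 kb had 1.59 kb in P3 het and 0 kb in the 6 other lists.

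Of 919 miRNA hairpins 60 overlapped a P0 KO peak and 65 a P3 KO peak, with 15 called only at P3 (1.63%) and 10 only at P0 (1.09%). Mir31, Mir101a and Mir149, named after their values were seen, were each called in P3 KO and in no other list.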

How the data were processed

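Chromatin of testis germ cells was immunoprecipitated with an H3K9me3 antibody in 16 samples and an H3 antibody in 16 others, which enter no comparison. The authors deposited 8 peak lists, 1 for each of the 8 groups of 2 H3K9me3 samples, with chromosome, start and end of each peak and no height, score or count. The submitters' processing notes name mm10, bcl2fastq 2.20, cutadapt 1.18, Bowtie2 2.3.4.1, deepTools 3.5.0 and HOMER 4.10, with no role for each. The peak caller's settings, the control, the handling of repeated sequence and the pooling of samples are not given in the sources used here, and read depth is unknown. In every list the commonest length was 1001 bp and the smallest gap 1499 bp, so short sites sit at a fixed width and near neighbours were joined.

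Starts were shifted by 1 to count from 1. Peaks on the 19 autosomes were compared with Python 3.11.15, numpy 2.4.6, pandas 2.3.3 and scipy 1.17.1, figures were drawn with matplotlib 3.10.9, and the scripts were tested on simulated peaks. Genes and start windows are those of RefSeq for GRCm38.p6, the assembly of mm10; a peak was placed by its midpoint. With 1 list a group there is no replicate error, no p-value and no test; the same steps were run on het and on KO from E16.5 to P0. Named genes are Morc1, the 10 genes called gained and the 10 called lost with the largest difference in covered length, the 5 largest from and to 0, 4 per gene list by absolute difference, those at the longest peak of each list, at the 5 longest new and gone peaks, at the 5 pairs with most gain and loss, and up to 5 with a start in the longest new and gone peaks. The gene lists and members were chosen with earlier results of these data known. Alternatives changed the overlap, the peaks used, the joining distance, the chromosomes, the gene interval and the size of change that counts. A few of the named genes are not reported here.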

Additional observations from a re-analysis of the deposited data

Results flagged for a closer look

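Covered length moved one way from P0 to P3 in KO and the other way in het at 6 of the genes named and called gained or lost in KO, and these differences were not tested, since each group has a single list. Vmn1r41 had 6.53 kb more at P3 in KO and -1.11 kb in het. Vmn1r51 had 2.51 kb more in KO and -2.74 kb in het, Serpinb9c 3.92 and -1.15 kb, and Prl6a1, a prolactin family gene of the placenta, 2.41 and -3.87 kb. Gm51582 had -6.82 kb in KO and 2.01 kb more in het, and Vmn2r11, named after its values were seen, 6.59 kb more in KO and -5.30 kb in het. A further 10 named genes that were called neither in KO also had opposite signs, among them Csmd1 (60.6 kb more in KO, -2.80 kb in het) and Orc6 (-1.42 kb in KO, 4.43 kb more in het), as had Zbtb16 (-4.92 kb in KO, 4.65 kb more in het).

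The summed cover of 3 gene lists also moved opposite ways, again untested. The meiosis genes had 15.7 kb more at P3 in KO and -4.14 kb in het, and the somatic testis genes -8.39 kb in KO and 0.548 kb more in het. Genes with symbols that start with Prl had 0.017 kb more in KO and -17.7 kb in het. They include Prlr, the gene of the prolactin receptor, which alone had 0.125 kb more in KO. The KO sum is thus close to no change, and its sign rests on Prlr.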

How the results depend on the processing

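No paired analysis was possible because each group has 1 peak list and no list carries a replicate number; for the same reason no replicate could be left out. Across the alternatives gone peaks outnumbered new ones and the covered length fell, by settings that were partly chosen after seeing the data (those on place, and on scaling). With peaks of 2 kb or more 9291 were gone and 7869 new, 3255 pairs narrowed and 2836 widened, and the P3 to P0 ratio of covered length was 0.956, 1.16 inside and 0.906 outside genes. With equal numbers of the longest peaks the ratios were 0.957, 1.11 and 0.912, with peaks up to 3 kb apart joined 0.934, 1.07 and 0.895, and with X added 0.925, 1.07 and 0.885. New peaks inside genes were 49.8% by base pairs, 46.5% with equal numbers and 50.4% after joining. At least 2-fold 3561 pairs narrowed and 2542 widened. Gene bodies with 5 kb on each side gave 914 lost genes, and limits of 2-fold and 5 kb gave 228 gained and 60 lost. Over 138 named genes and 5 alternatives no gene called gained or lost changed direction; 27 of 690 values changed sign in a gene called neither or involved a difference of 0. With peaks of 2 kb or more the difference was 0 for Mael, Mei1, Pdgfra and Defb1, and after joining for Prl6a1. List sums that did were Serpina and Serpinb (-7.15 kb) and Prl (-7.25 kb) with 5 kb on each side, Prl after joining (-4.05 kb), and the genes of 500 kb or more with peaks of 2 kb or more (136.5 kb more at P3) or scaled to equal totals (636.4 kb more). Over the reported setting and these 5, gained genes were 38.1 to 50% of the H3K9 methylation list beside 13.6 to 30.6% of all genes, and lost genes 27.7 to 44.2% of Vmn2r beside 5.16 to 10.4%; the causes were not tested.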
